A study of Mus musculus with 6 samples.

Results

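The cilium genes of this account are 38 genes whose proteins build or serve the photoreceptor cilium: the BBSome and its assembly factors, the intraflagellar transport (IFT) complexes and motors, small GTPases of the ARL family, and the connecting cilium. They were chosen by gene symbol, each read at the probe with the highest mean level among those carrying that single symbol. Of the 38 genes, 35 had such a probe, and 31 passed the filter on dim probes (above the array median on at least 3 arrays) and were tested; all 31 lay above it in all 6 samples. The RNA was taken from central retina of the rd1/rd1 strain, from animals aged 2 or 8 months, with 3 samples per age, on single-colour Illumina bead arrays of 45281 probes. Every sample pooled 3 to 6 retinal punches, each 1.5 mm wide; the number of animals behind a pool is not stated. Both ages carry the rd1 allele, a defect in the rod phosphodiesterase gene Pde6b, so that neither group is a retina with intact rods, and neither age was treated. The labels call the strain rd1/rd1 without a genetic background, and no wild-type retina was part of the comparison.

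The outer segment of a photoreceptor is a modified primary cilium, joined to the cell body by the connecting cilium, through which every protein of the outer segment must pass. Kinesin-2 motors carry IFT-B trains outward along the microtubules, dynein-2 and IFT-A bring them back, and the BBSome acts as an adaptor for membrane proteins. Mutations of many of these genes cause retinal degeneration in syndromes such as Bardet-Biedl, Joubert and Senior-Loken. Most other cells of the retina carry a primary cilium as well, so the RNA of these genes does not come from photoreceptors alone. In a bulk sample, fewer cells of a type and less RNA per cell cannot be told apart.

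None of the 31 tested members passed an adjusted p of 0.05 in either direction (limma, Benjamini-Hochberg over 12046 genes). Over all tested genes 0.224% did, so the absence of a call among the 31 members lies near that share. Their changes, 8 months minus 2 months on the log2 scale, ran from −0.24 for Kif3a to 0.28 for Ahi1, with 17 positive and 14 negative. The median change of the members was 0.021, beside 0.000482 over all tested genes, and their median standard error was 0.061. The smallest adjusted p among them was 0.229.

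The precision bounds the change at the probe read for each gene, in bulk RNA and without adjustment for the number of genes. For all 31 tested members the 95% interval of the change lay inside a 1.5-fold difference in either direction, which is 0.585 on the log2 scale, as it did for 97.2% of all tested genes. The lowest bound was −0.386, for Kif3a, and the highest 0.48, for Ahi1. By contrast Arr3, the cone arrestin, had a change of −1.55 with an interval from −1.85 to −1.26, and Gnat2, the cone transducin alpha subunit, had −0.86 with −1.05 to −0.67. Crx, a transcription factor of photoreceptors and bipolar cells, had −0.18 with −0.397 to 0.0436, inside the 1.5-fold limit. Of the 9 tested cone markers, 3 also had intervals inside that limit. The intervals cover the spread between 3 pools per age, and differences at levels close to the array median of 7.19 can be compressed by background.

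**Figure D1:**
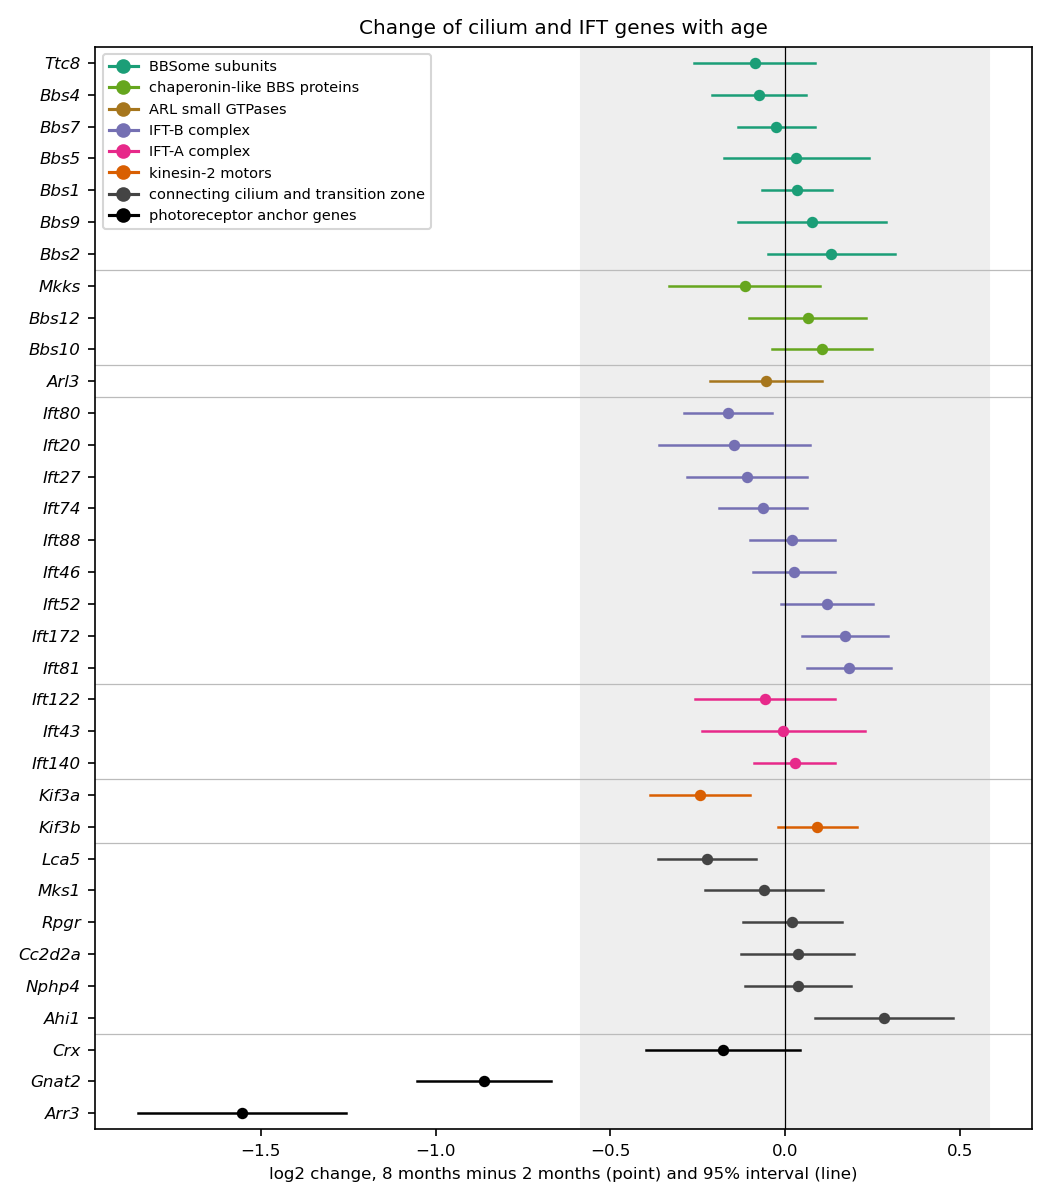
Change of each tested cilium gene between ages (x axis, log2, 8 months minus 2 months; points) with its 95% interval from limma (lines; n = 3 samples per age), grouped by role, with 3 photoreceptor genes in black at the bottom. The grey band marks a 1.5-fold difference. The intervals of all 31 members and of Crx lie inside it, while those of Gnat2 and Arr3 lie outside.

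At an unadjusted p below 0.05 the fit held 6 of the 31 members, or 19.4%, beside 10.4% of all tested genes. They were divided between the directions, 3 positive (5.1% of all genes) and 3 negative (5.34%). The 3 values of one age lay entirely above those of the other for 10 members, or 32.3%, beside 15% of all tested genes. In 7 of these the 8 month samples were the higher ones (7.45% of all genes) and in 3 the lower ones (7.59%). The median size of the change regardless of sign was 0.0738 for the members and 0.0561 for all tested genes. Since no member passed the adjusted threshold, these counts describe these 6 arrays.

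The BBSome is the octameric coat that moves membrane proteins out of and into cilia, and its 7 listed subunits were all tested. Their changes ran from −0.087 to 0.13 with a median of 0.033, and none had an unadjusted p below 0.05. Bbs2, a propeller-domain subunit of the core, lay at 8.15, 8.11 and 8.33 in the 2 month samples and at 8.23, 8.34 and 8.42 in the 8 month samples. The ages overlapped, since 2 month replicate 3 exceeded 8 month replicate 1. Its change was 0.13 (SE 0.077, n = 3 per age, limma adjusted p = 0.66).

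The other BBSome subunits had smaller differences. Bbs9 and Bbs5, a propeller-domain subunit and one with pleckstrin-homology domains, had changes of 0.078 and 0.033. Bbs7, another propeller-domain subunit, had −0.025, while Bbs4 and Ttc8, both built from tetratricopeptide repeats, had −0.074 and −0.087. Bbs1, the subunit that meets the GTPase ARL6 at the membrane, was the 1 member of the group whose ages did not overlap. It spanned 7.36 to 7.38 at 2 months and 7.40 to 7.41 at 8 months, a change of 0.034 (SE 0.043) close to background.

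Mkks, Bbs10 and Bbs12 are chaperonin-like proteins that help the BBSome to assemble. Bbs10 lay at 8.26, 8.29 and 8.22 at 2 months and at 8.48, 8.32 and 8.30 at 8 months. All 8 month samples were above all 2 month samples, 8 month replicate 1 being the highest. The change was 0.10 (SE 0.061, limma adjusted p = 0.66), and the other kept probe of the gene gave −0.079. Mkks had a change of −0.12 (SE 0.092) and Bbs12 of 0.065 (SE 0.071), both with overlapping ages.

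Of the ARL GTPases, Arl3 was measured. It is the switch that releases lipid-modified proteins such as phosphodiesterase and transducin from their carriers inside the cilium. Arl3 went from 11.1 ± 0.107 (SD, n = 3) at 2 months to 11.1 ± 0.0653 at 8 months, a change of −0.054 (SE 0.068), and its second kept probe gave 0.047. Arl6, which recruits the BBSome to membranes, and Arl13b, which activates Arl3, had no probe under their symbols and were not analysed here.

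IFT-B is the complex of the outward trains, and 9 of its 10 listed subunits were tested. Its changes were spread on both sides of 0, with 5 positive, 4 negative and a median of 0.020. Ift81, which together with Ift74 binds tubulin cargo, lay at 9.50, 9.55 and 9.59 at 2 months and at 9.77, 9.68 and 9.74 at 8 months. The ages did not overlap, and the change was 0.18 (SE 0.051, 1.14-fold, limma adjusted p = 0.268).

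Ift172, a large subunit of the train's periphery, lay at 9.49, 9.53 and 9.63 at 2 months and at 9.74, 9.70 and 9.73 at 8 months. The ages did not overlap here either, and the change was 0.17 (SE 0.053, limma adjusted p = 0.311). Ift80, mutated in a skeletal ciliopathy, ran the other way, at 7.99, 8.03 and 8.02 at 2 months and 7.89, 7.76 and 7.89 at 8 months. Here every 8 month sample was below every 2 month sample, with 8 month replicate 2 the lowest, and the change was −0.16 (SE 0.054; limma adjusted p = 0.346). Ift74, the partner of Ift81, had a change of −0.062 (SE 0.054) at a level of about 7.4, near background. The change of Ift81 exceeded that of Ift74 by 0.246, a pair picked after its values were seen and not tested. That difference rests on the brightest probes, and the other kept probes of Ift81 gave −0.0071 and 0.018.

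Ift52, a core subunit, lay at 9.26, 9.19 and 9.29 at 2 months and at 9.30, 9.35 and 9.44 at 8 months. The gap between the ages was narrow, and the change was 0.12 (SE 0.056, limma adjusted p = 0.537).

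Ift20, which also works at the Golgi on the way to the cilium, lay at 11.85, 12.13 and 11.86 at 2 months and at 11.69, 11.83 and 11.89 at 8 months. The ages overlapped, and the 2 month value of replicate 2 stood above the other 5 samples. The change of Ift20 was −0.15 (SE 0.092, limma adjusted p = 0.69). Ift27, a Rab-like GTPase that links the trains to the BBSome, lay at 9.58, 9.60 and 9.45 at 2 months and at 9.32, 9.55 and 9.42 at 8 months, with a change of −0.11 (SE 0.074). The ages overlapped there too. Ift88, whose loss prevents outer segments from being kept up, had a change of 0.020 (SE 0.052), and Ift46 one of 0.026 (SE 0.050) at a level of about 7.3, near background.

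IFT-A, the complex of the return trains, had 3 tested subunits with changes between −0.058 and 0.027. Ift140, a core subunit mutated in retinal dystrophy, went from 8.53 ± 0.0568 to 8.55 ± 0.0243. Ift122, another core subunit, and Ift43, a small peripheral one, had changes of −0.058 (SE 0.085) and −0.0048 (SE 0.10). For both, 8 month replicate 2 was above the other 8 month samples, and the ages overlapped in all 3 genes.

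The kinesin-2 motors gave opposite signs. Kif3a, a motor subunit of the heterotrimer that drives outward transport, lay at 10.62, 10.67 and 10.57 at 2 months and at 10.28, 10.46 and 10.39 at 8 months. Every 8 month sample was below every 2 month sample, with 8 month replicate 1 the lowest. The change was −0.24 (SE 0.061, 0.845-fold, limma adjusted p = 0.229), the most negative among the members.

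Kif3b, the other motor subunit of the same heterotrimer, lay at 8.37, 8.42 and 8.35 at 2 months and at 8.44, 8.48 and 8.50 at 8 months. The ages did not overlap here either, in the other direction, and the change was 0.092 (SE 0.048, limma adjusted p = 0.599). Kifap3, the third subunit, which is not among the members, had a change of 0.11 (SE 0.050, limma adjusted p = 0.492). The change of Kif3a lay below that of Kif3b with a difference of −0.335 and below that of Kifap3 with −0.357, pairs chosen after the values were seen and not tested. These differences rest on the brightest probes, and the other kept probe of Kif3a gave −0.028.

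In the connecting cilium and its transition zone, the gate of Y-shaped links at the base, 6 of 9 listed genes were tested. Ahi1, which codes for jouberin, lay at 10.79, 10.72 and 10.98 at 2 months and at 11.08, 11.02 and 11.23 at 8 months. Both ages spread by over 0.2, and the lowest 8 month sample was just above the highest 2 month sample. The change was 0.28 (SE 0.084, 1.22-fold, limma adjusted p = 0.294), the most positive among the members.

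Lca5, which codes for lebercilin, an IFT-binding protein of the connecting cilium that is mutated in Leber congenital amaurosis, lay at 8.18, 8.34 and 8.27 at 2 months and at 7.98, 8.04 and 8.09 at 8 months. The ages did not overlap. The change was −0.22 (SE 0.059, 0.857-fold, limma adjusted p = 0.246).

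The other tested genes of the group were closer to 0. Nphp4, a nephrocystin, had 0.038 (SE 0.064), Cc2d2a and Mks1, both of the Meckel syndrome module, had 0.036 (SE 0.069) and −0.060 (SE 0.072), and Rpgr, the regulator mutated in X-linked retinitis pigmentosa, had 0.021 (SE 0.061). Rpgr lay at 7.33 to 7.48 in all 6 samples. The retina uses a splice form of Rpgr with a long purine-rich exon, and the files do not say which form the probe reads.

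Below the filter were Ift57 of IFT-B, the homodimeric motor Kif17, and the transition zone genes Tmem67 and Tctn1. Their 16 probes had mean levels of 7.1 to 7.17, under the array median of 7.19, and changes between −0.052 and 0.093. At such levels neither a rise nor a fall of the RNA could be read. Cep290, a gatekeeper of the transition zone, had no probe under its symbol and was not analysed here.

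**Figure D2:**
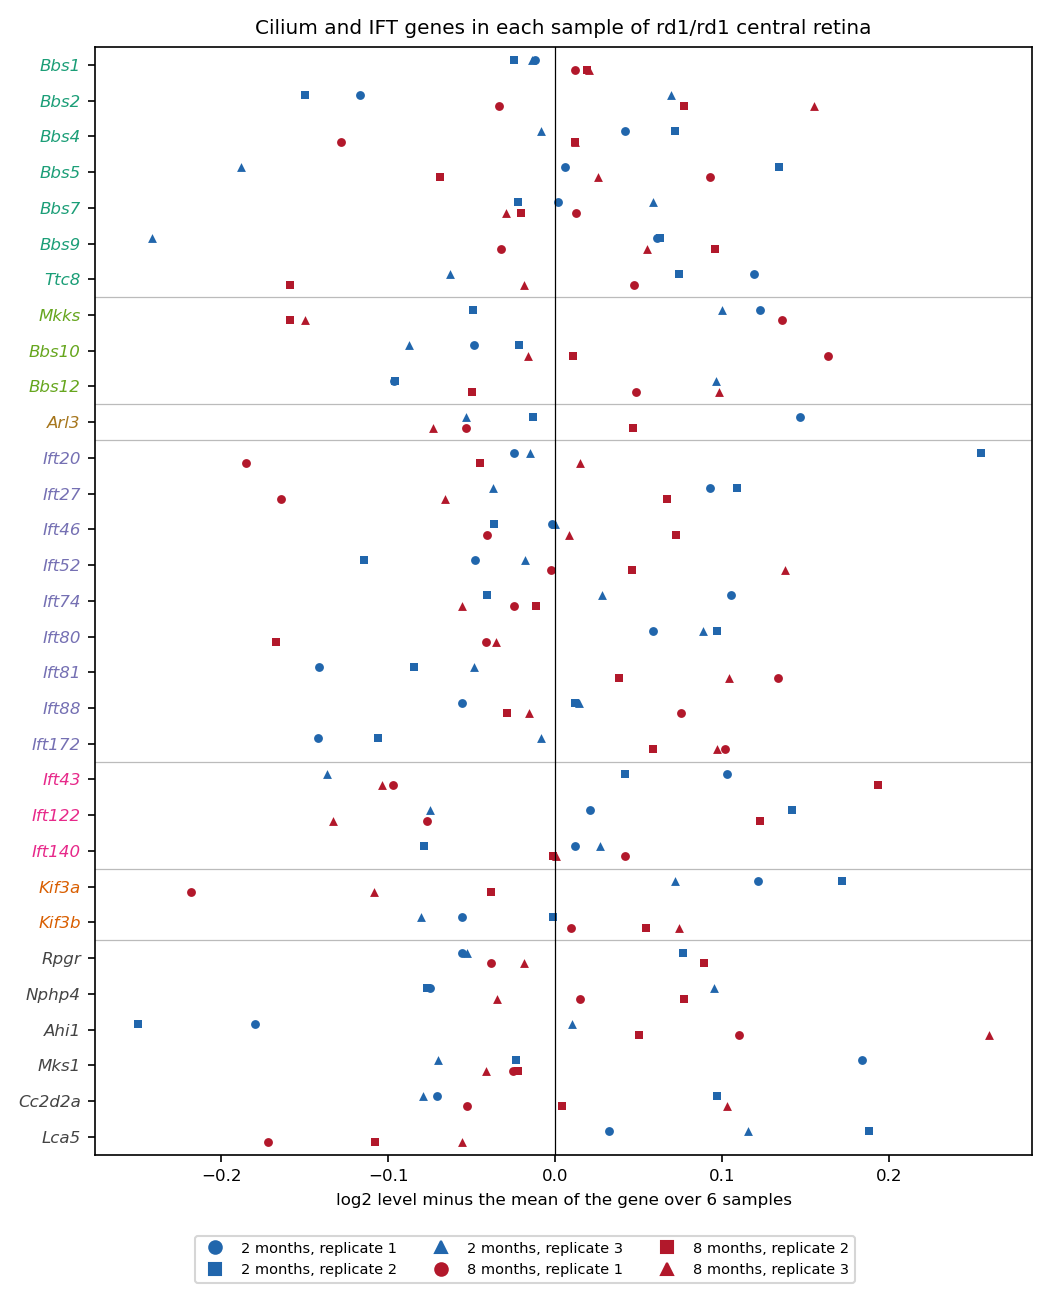
Each tested cilium gene in each of the 6 samples, as the log2 level minus the mean of that gene (x axis), with 2 month samples in blue, 8 month samples in red and symbols for the replicate. The ages separate for 10 genes, among them Kif3a and Lca5 with the 8 month samples to the left and Ift81, Ift172 and Ahi1 with them to the right.

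A second probe of a gene gives another reading of its RNA on the same arrays. In all, 16 tested members had more than 1 kept probe, and in 9 of them the kept probes shared a sign. Of the 6 members with an unadjusted p below 0.05, 5 had another kept probe, and in each of the 5 it gave a change close to 0. For Kif3a that probe was bright, at a mean of 10.0, with a change of −0.028. The other probes of Ift81, at 9.22 and 8.82, gave −0.0071 and 0.018, and those of Ift172, at 7.98 and 7.97, gave 0.024 and −0.0026.

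The second probes of Ahi1 and Lca5 gave −0.0099 and −0.026, but at levels of 7.19 and 7.26, near background, and Ift80 had no other kept probe. Outside these 6, the kept probes differed in sign for Arl3 (−0.054 and 0.047), Bbs10 (−0.079 and 0.10), Ttc8 (−0.087 and 0.040) and Ift74 (3 probes, from −0.062 to 0.0057). Both kept probes of Ift52 were positive, at 0.12 and 0.15, and both of Kif3b, at 0.092 and 0.10. The 3 kept probes of Ift20 were all negative, at −0.15, −0.24 and −0.098, and the probe at −0.24, picked out after its values were seen, spanned 10.30 to 10.41 at 2 months and 10.05 to 10.18 at 8 months. Taking the dimmest kept probe of each gene in place of the brightest left 2 of 31 members with an unadjusted p below 0.05. The share of all genes was then 8.76%, and 1 of the 2 members was among the 6. Taking the mean of the kept probes left 6 of 31, beside 10.5% of all genes, and 4 of them were among the first 6.

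**Figure D3:**
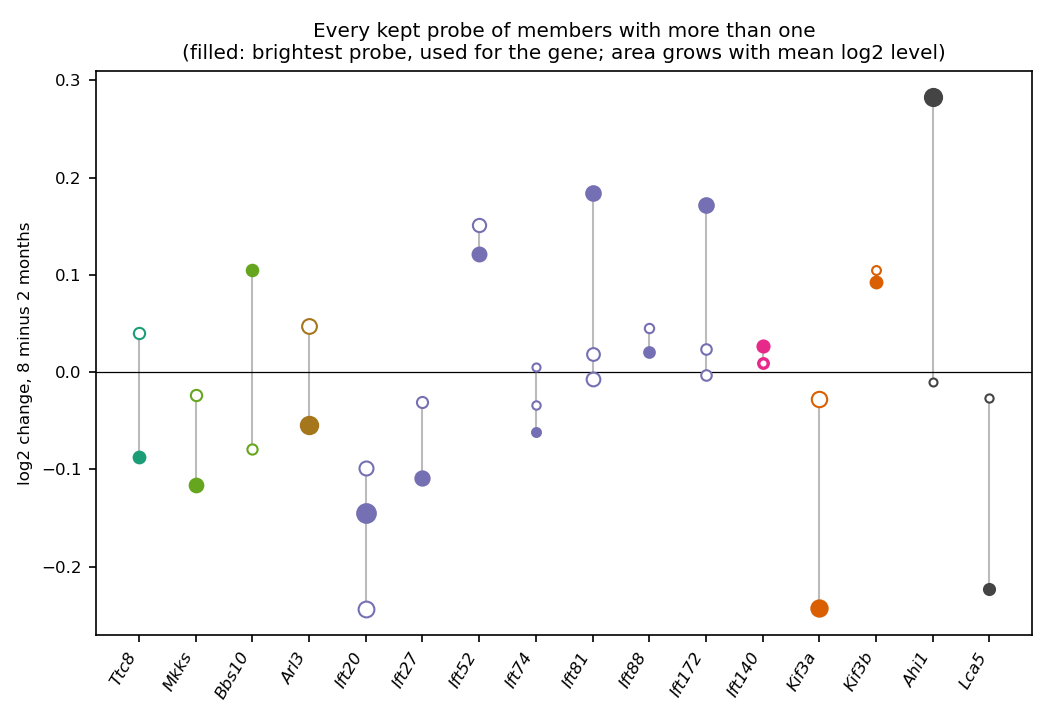
Change between ages (y axis, log2, 8 minus 2 months) at every kept probe of the 16 members that had more than 1, with the brightest probe filled and the others open, and the area of a point growing with its mean level. For Kif3a, Ift81, Ift172, Ahi1 and Lca5 the open points sit near 0, while those of Ift52, Kif3b and Ift20 lie on the same side as the filled one.

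Promoters of ciliary genes are known to carry X-boxes, inverted repeats bound by RFX transcription factors, and the element was looked for in the RefSeq promoter windows of build GRCm38.p6, which run from 250 bases before to 50 after a gene's start. The letters searched were GTTNCCNNGGNAAC, which read the same on both strands, and 34 of the 38 members had a window (not Ift80, Ift81, Ift122 or Tmem67). An exact match occurred in 4 of the 34 members, or 11.8%, and in 0.529% of the 27025 genes with a window. With 1 mismatch allowed the count was 8 of 34, or 23.5%, beside 2.89% of all genes, which added Bbs1, Bbs4, Ift57 and Nphp4. In the further cilium lists described below, 2 of 66 genes with a window matched exactly (3.03%) and 11 with 1 mismatch allowed (16.7%). For the form with a spacer of 3 bases, GTTNCCNNNGGNAAC, 1 mismatch allowed, Lca5 was the 1 member that matched, beside 1.02% of all genes.

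In the further cilium lists, 4 of 66 genes matched this form with 1 mismatch allowed (6.06%), beside 2.94% of the members. The exact matches of the members are shown with that of Lca5, which is of the form with a spacer of 3 bases, beside the changes of their carriers. Each is written 5′ to 3′ along the strand of the gene with the match in capitals, and the windows lie on GRCm38.p6 at chr10:20952560-20952589 (plus strand) for Ahi1, chr3:36613489-36613518 (minus strand) for Bbs7, chr11:87853183-87853212 (plus strand) for Mks1, chr5:122264411-122264432 (minus strand) for Tctn1 and chr9:83441137-83441167 (minus strand) for Lca5.
Ahi1: tagtctgaGTTACCTAGGCAACagcggcag
Bbs7: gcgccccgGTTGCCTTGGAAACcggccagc
Mks1: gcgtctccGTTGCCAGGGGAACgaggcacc
Tctn1: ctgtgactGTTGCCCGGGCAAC
Lca5: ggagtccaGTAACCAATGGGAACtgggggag

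The match was centred 28 bases downstream of the start of Ahi1, 114 upstream for Bbs7, 17 upstream for Mks1 and 43 downstream for Tctn1. For Lca5 it lay 25 or 53 bases upstream, depending on which of its starts is taken. Of the carriers shown, Ahi1 had a change of 0.28, Bbs7 of −0.025, Mks1 of −0.060 and Lca5 of −0.22, and Tctn1 was below the filter. Of those that matched the shorter form with 1 mismatch, Bbs1 had 0.034, Bbs4 −0.074 and Nphp4 0.038, and Ift57 was below the filter. A part of the element in these changes was not tested. Of the RFX genes themselves, Rfx1 was near level at 8.68 and 8.71 at 2 and 8 months, and Rfx2 at 7.62 and 7.65. Rfx3, at 7.33 and 7.35, and Rfx4, at 7.17 in both ages, lay near background, and Rfx5 and Rfx7 were below the filter. The core letters bound by the photoreceptor factor CRX, TAATCC on either strand, were found in 1 of 34 members, Bbs1, and in 8.14% of all genes. A match describes letters in a window and is not a measured binding site.

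The rest of the pathway was read from 5 further lists, 77 genes in all, of which 61 were tested. None was higher and 1 was lower at an adjusted p below 0.05 (limma), where 0.0664% of all genes were lower, and 5 of 61, or 8.2%, had an unadjusted p below 0.05, beside 10.4% of all tested genes. The gene that fell was Tulp1, needed for protein transport into the outer segment, at 9.44, 9.37 and 9.07 at 2 months and 8.27, 8.29 and 7.85 at 8 months. The change was −1.15 (SE 0.141, limma adjusted p = 0.0472). Leaving out any sample except 2 month replicate 3 ended the call, with adjusted p-values from 0.0767 (without 8 month replicate 3) to 0.162 (without 8 month replicate 1), and its dimmest kept probe had a change of −0.20.

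Tulp1 belonged to the list of photoreceptor axoneme and lipidated-protein transport genes, of which 9 of 11 were tested, with a median change of −0.040. In the same list Rp1l1, a photoreceptor microtubule protein of the axoneme, lay at 7.65, 7.75 and 7.48 at 2 months and 7.27, 7.27 and 7.18 at 8 months, a difference of −0.38 (SE 0.075; limma adjusted p = 0.14). Its ages did not overlap, and the 8 month values were near background. Pde6d, the carrier of prenylated proteins whose cargo Arl3 releases, lay at 10.95, 11.05 and 10.87 at 2 months and 10.67, 10.75 and 10.69 at 8 months, a difference of −0.25 (SE 0.060; limma adjusted p = 0.202). Its dimmest kept probe gave 0.033. Unc119, the carrier of acylated proteins, had a change of −0.13 (SE 0.090) with overlapping ages.

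The other lists stayed close to 0. Among 17 tested IFT, dynein-2 and BBSome partners the median change was −0.035, with Wdr34, a dynein-2 intermediate chain, at −0.13 (SE 0.057) and Rabl2, a GTPase that starts the trains, at −0.18 (SE 0.087). Among 17 tested further transition zone genes the median was −0.017, with Tmem237 at −0.16 (SE 0.049, limma adjusted p = 0.294, and no overlap), Tctn2 at −0.15 (SE 0.076) and Spata7 at −0.056 (SE 0.048). The 5 tested ciliogenesis factors had a median of 0.031, with Foxj1, the switch of motile cilia, near background at 7.26 and 7.31. The 13 tested centriole genes had a median of −0.0054, with Cetn2, a centrin, at 0.13 (SE 0.052, limma adjusted p = 0.436), Cep63 at −0.058 (SE 0.054) and Cep97 at −0.062 (SE 0.063).

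**Figure D4:**
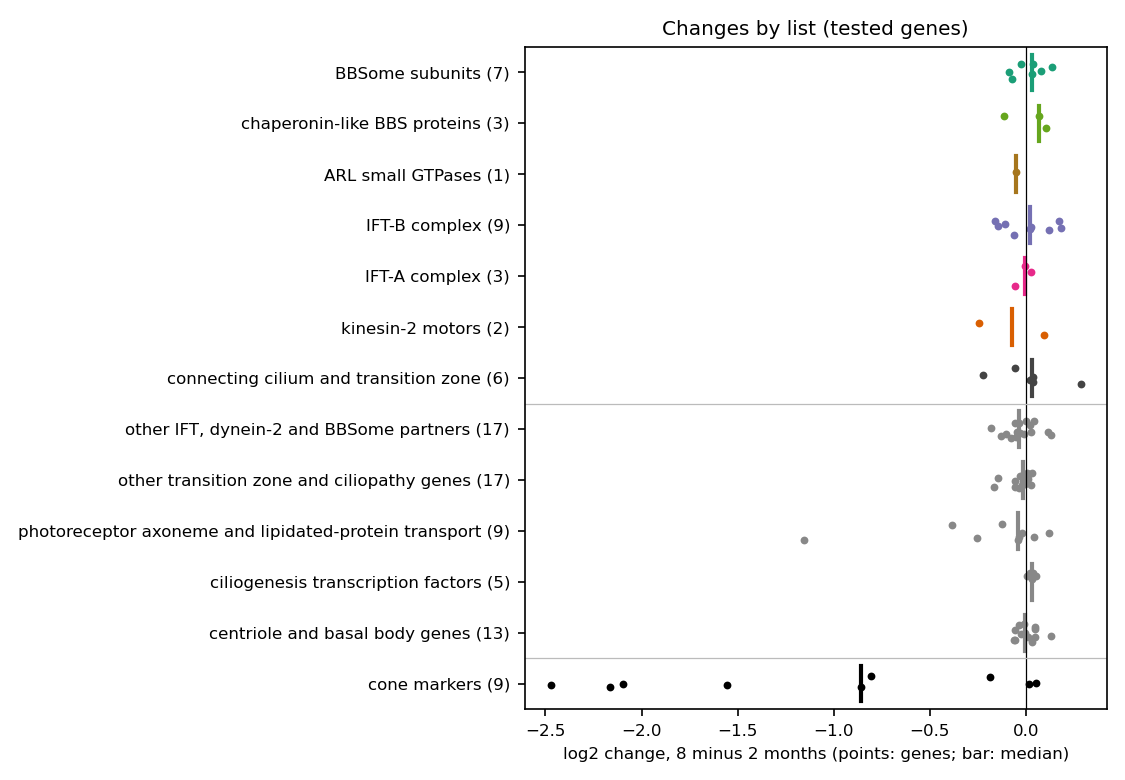
Changes between ages (x axis, log2, 8 minus 2 months) of the tested genes in each role group of the cilium set, in the 5 further cilium lists (grey) and among the cone markers (black); points are genes, bars are medians, and numbers of tested genes are in brackets. The medians of the cilium groups lie between −0.0752 and 0.065, while that of the cone markers is −0.861.

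Photoreceptor markers differed between the same samples, though not all in the same direction. Of the 9 tested cone markers 7 had a negative change, of which 2 were called (Arr3 and Gnat2, limma adjusted p = 0.00936 and 0.0169). Gnb3 and Cngb3 had positive changes of 0.049 and 0.017. The median change of the cone markers was −0.86, and their mean level spanned 9.81 to 10.2 at 2 months and 8.52 to 9.13 at 8 months. The 6 tested rod markers, 3 positive and 3 negative, ran from −1.81 to 0.15 with a median of −0.076, and none was called. All 9 tested general photoreceptor markers had negative changes, with a median of −0.34 and 1 call (Tulp1). The mean level of the 31 cilium genes spanned 8.86 to 8.88 in both ages. Crx, a transcription factor of photoreceptors that bipolar cells also express, had a change of −0.18 (SE 0.094). The part of the lower cone marker levels in the changes of single cilium genes was not tested.

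**Figure D5:**
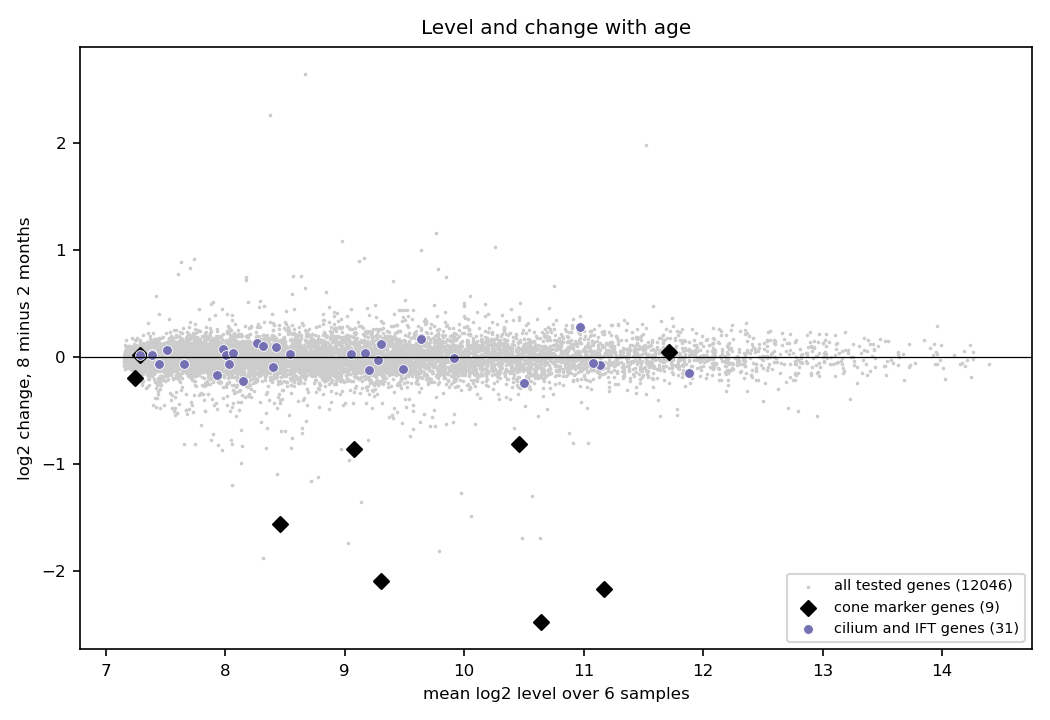
Mean log2 level over the 6 samples (x axis) and change between ages (y axis, log2, 8 minus 2 months) of 12046 tested genes (grey), the 9 tested cone markers (black diamonds) and the 31 tested cilium genes (violet). The cilium genes keep to the band around 0 at every level from 7.28 to 11.9, while 6 of the cone markers lie below −0.8.

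The arrays correlated at 0.99 to 0.996 with each other, and markers of inner retinal cells were bright, with mean levels of 11.7 to 11.8 for bipolar cells and 11.4 to 11.6 for Müller glia. Of the 8 tested bipolar cell markers, 7 had a negative change and 1 a positive one, with a median of −0.081. None was called by limma, and 2, or 25%, had an unadjusted p below 0.05, beside 10.4% of all tested genes. The 7 Müller glia markers, 4 positive and 3 negative, had a median of 0.011. Of the 8 amacrine cell markers, 7 had a positive change and 1 a negative one, with a median of 0.13. No amacrine marker was called by limma, and 2, or 25%, had an unadjusted p below 0.05 (Gad2 0.51, adjusted p = 0.135). The 6 tested ganglion cell markers, 5 positive and 1 negative, had a median of 0.11 and no call. Both tested horizontal cell markers were lower at 8 months without overlap and without a call (Lhx1 −0.44, limma adjusted p = 0.0555, and Onecut2 −0.12). Over all tested genes 7.59% were lower without overlap. The part of any of these lists in the results was not tested. Some samples stood apart in other markers. In 2 month replicate 2 the red blood cell markers (3 of 5 tested) had a mean level of 12.1, against 10.7 to 10.8 in the other 2 month samples and 9.53 to 9.61 at 8 months. That sample was also the highest for pigment epithelium (8 of 8 tested, 10.4 against 8.98 to 9.84 elsewhere) and skeletal muscle (4 of 6 tested, 9.2 against 7.32 to 8.18 elsewhere), and 8 month replicate 3 was the lowest for pigment epithelium and for cones. Lens markers (5 of 6 tested) were highest in 2 month replicate 3, at 8.28 against 7.2 to 7.79 elsewhere. Leaving out 2 month replicate 2 and 8 month replicate 3 together, an alternative chosen after the data were seen, left fewer arrays at each age. No member then passed the adjusted threshold, and 2 of 31 had an unadjusted p below 0.05, both negative, where 7.12% of all genes did. Xist, the RNA that coats the silenced X chromosome, had levels of 9.4 and 8.73 in 2 month replicates 1 and 2 and of 10.5 to 11.1 elsewhere. The Y-linked Eif2s3y had levels of 7.79 and 8.27 in those 2 samples and of 7.1 to 7.18 in the other 4, so the ages were not matched for these sex-linked RNAs. The part of this difference in the results was not tested.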

How the data were processed

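Deposited values were used as the authors gave them, 1 value per probe for each of 6 samples on Illumina bead arrays. Spanning 6.98 to 14.5, the deposited numbers were taken as log2 intensities; sorted columns match within 0.00307, as quantile normalization leaves them. How the arrays were scanned, corrected and normalized is not given in the sources used here. Groups and replicate numbers came from the sample titles; the descriptions number 2 month replicates 1 and 2 alike, but their values differ (Xist 9.4 and 8.73), and they were kept as separate samples. The series design calls the samples independent without saying that no animal gave punches to more than 1, so p-values rest on the spread between pools, and 3 arrays per age limit the precision.

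Probes above the 50th percentile of their array on at least 3 arrays were kept (22458). Each of 12046 genes with a single symbol in the array annotation was represented by its brightest kept probe. The 8 month minus 2 month difference was fitted by lmFit and eBayes (limma 3.58.1, R 4.3.3; 4 residual plus 3.311 prior degrees of freedom), and p-values were Benjamini-Hochberg adjusted over all tested genes, a call being below 0.05. The test was checked on simulated data. Members, lists and alternatives were chosen with earlier results of these data known. Sample values are given for the 12 members with the smallest p. For the other cilium lists the called gene and the 3 genes with the smallest p are named, with Arr3, Gnat2 and Crx as photoreceptor anchors. Unc119, Rfx3, Rfx4, Rfx5 and Rfx7 were added for their roles. Alternatives were other normalizations, filters, probe choices and priors, a replicate block and leaving out each sample. Samples with the same replicate number had deviations correlated at 0.0239, 0.139 and 0.16. Samples with unlike numbers were not compared in this way, so these values cannot say whether the numbers pair the samples. The main fit treated them as unpaired.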

Additional observations from a re-analysis of the deposited data

How the results depend on the processing

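No member was called in either direction under any alternative run (0 higher and 0 lower, also with the replicate block and without each sample in turn). The members with an unadjusted p below 0.05 numbered 2 to 8, while the share of all genes ran from 7.12% to 12.2%. The 8 were of 35 members, with no filter (8.3% of all genes). The 2 were of 31, with the dimmest probes (8.76%) and without 2 month replicate 2 and 8 month replicate 3 (7.12%). The smallest adjusted p of a member was 0.142, for Ahi1 with the replicate block (limma), and the largest of these minima 0.642. The members' median change of 0.0211 ranged from −0.00356 to 0.0283 when 1 sample was left out. Over all genes, 19 higher and 8 lower became 5 and 2 with no filter, 38 and 35 with the stricter one, 52 and 52 with a trended robust prior, 11 higher with the dimmest probes, 18 lower with the replicate block, and 5 and 5 without 2 month replicate 2 and 8 month replicate 3; leaving out 1 sample gave 2 (without 2 month replicate 1) to 14 higher and 0 (without 2 month replicate 1) to 20 lower (without 2 month replicate 3). In the other cilium lists the 1 lower call became 0 with no filter, with the dimmest probes and without those 2 samples, 2 with the trended prior, and 0 to 1 with 1 sample left out. The median of the BBSome was 0.0037 with the stricter filter, that of the ARL group 0.047 with the dimmest probe, and that of kinesin-2 0.065 with no filter, −0.0184 with probe means and 0.0384 with the dimmest probes. Leaving out 1 sample moved the medians of the BBSome between −0.0228 and 0.0368, IFT-B between −0.0124 and 0.0323 and IFT-A between −0.103 and 0.0396. Signs turned with the dimmest kept probe for Ahi1 (−0.00986), Ift172 (−0.00258), Bbs10 (−0.0789), Rabl2 (0.0128), Pde6d (0.0332), Rfx1 (−0.032) and Cep97 (0.058), with probe means for Cep97 (0.00477), without 8 month replicate 1 for Rfx1 (range −0.0174 to 0.0817 over single samples left out) and without 2 month replicate 3 for Rfx2 (−0.0313 to 0.0974); none of these genes was called. The causes were not tested.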
